A study of Mus musculus with 20 samples.

Results

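The Kcn genes encode the pore-forming and auxiliary subunits of potassium channels. Every gene of the deposited table whose symbol is Kcn, 1 letter and a digit was taken, which gave 83 of 45777 listed genes. Of these, 81 are protein coding and 2, Kcnq1ot1 and Kcnd3os, are noncoding RNAs. By the stem of the symbol the coding genes were 40 voltage-gated alpha subunits (Kcna, Kcnb, Kcnc, Kcnd, Kcnf, Kcng, Kcnh, Kcnq, Kcns and Kcnv), 5 auxiliary Kcne subunits, 15 inward rectifiers (Kcnj), 7 calcium- or sodium-activated channels (Kcnn, Kcnt and Kcnu) and 14 tandem-pore channels (Kcnk), which are also called K2P channels. Kcnu1, a pH-sensitive channel, is counted with the calcium- or sodium-activated class. The rule uses the symbol and no measured level.

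Potassium channels let potassium ions flow out of the cell and so set its resting potential and end its action potentials. Voltage-gated channels open on depolarization, inward rectifiers and tandem-pore channels hold the resting potential, and calcium-activated channels couple calcium entry to repolarization. In the uterus they restrain contraction of the myometrium, set the tone of the vessels and provide the driving force for chloride and fluid secretion by the epithelium.

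The uteri came from wild-type B6D2F1 female mice aged 8 to 12 weeks that had mated, with the morning of the plug as day 0.5, and 1 horn per mouse was taken on the evening of day 3.5 at 18:00, shortly before implantation. There were 4 groups of 5 mice. The control mice received no treatment, and the IF mice, the implantation failure model, received 3 mg/kg of RU486, an antagonist of the progesterone and glucocorticoid receptors, under the skin on the morning of day 3.5, so RU486 and its injection cannot be told apart. The PBMC mice received the same RU486 after 50000 peripheral blood mononuclear cells had been placed in each horn on day 1.5, and the PBMC-hCG mice differed from them in that the cells had been cultured with human chorionic gonadotropin (hCG) at 5 IU/mL. The donors of the cells were non-pregnant mice. Because the labels record no injection into the horns of the IF mice, an effect of the cells and an effect of the injection cannot be told apart in the comparisons of either PBMC group with IF. The study also had mice that received medium with hCG and no cells, but none of the 20 libraries comes from them.

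Expression was given as TPM, a transcript level scaled for transcript length and for the size of the library, so levels could be set beside each other between genes. Libraries summed to between 999989 and 999999 TPM and listed 22702 to 24097 genes above 0. The read depth behind them is unknown, and within a group the log2 values of any pair of libraries correlated at r = 0.961 to 0.992 across genes, which are not independent replicates. All 10 myometrial, 10 epithelial, 8 glandular, 8 stromal and 8 endothelial marker genes were above 0 in every library, and of the ovary and oviduct genes Cyp19a1 and Zp3 were listed at 0 throughout. In 5 libraries (control 2, control 5, IF 3, IF 5 and PBMC-hCG 4) the summed level of the gland markers was 6255 to 23960 TPM, above the other 15. Results were therefore also computed without these 5 libraries. In bulk tissue, fewer cells of a type and less RNA per cell cannot be told apart.

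Promoters of 3 of the genes described below are shown here because these genes differed clearly between control and IF mice and stand for both directions: Kcnd2, the gene with the steepest fall, and Kcnj8 and Kcnk5, the abundant genes that rose. Each window runs from 250 bases before to 50 bases after the RefSeq start on GRCm38.p6 and is written in the direction of the gene. Their positions are chr6:21215096-21215395 on the plus strand for Kcnd2, chr6:142571565-142571864 on the minus strand for Kcnj8 and chr14:20181733-20182032 on the minus strand for Kcnk5. Capitals mark the GC box GGGCGG, which was searched on both strands.
Kcnd2: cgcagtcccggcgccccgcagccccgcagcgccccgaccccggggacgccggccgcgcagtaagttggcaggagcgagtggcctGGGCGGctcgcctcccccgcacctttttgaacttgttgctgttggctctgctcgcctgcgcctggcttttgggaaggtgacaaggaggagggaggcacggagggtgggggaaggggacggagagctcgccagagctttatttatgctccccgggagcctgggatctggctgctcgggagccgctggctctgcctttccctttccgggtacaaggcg
Kcnj8: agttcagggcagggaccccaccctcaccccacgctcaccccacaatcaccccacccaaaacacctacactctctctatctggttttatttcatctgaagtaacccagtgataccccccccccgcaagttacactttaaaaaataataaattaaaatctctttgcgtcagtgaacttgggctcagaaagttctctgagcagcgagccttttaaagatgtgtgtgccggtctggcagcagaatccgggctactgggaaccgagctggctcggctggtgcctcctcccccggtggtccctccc
Kcnk5: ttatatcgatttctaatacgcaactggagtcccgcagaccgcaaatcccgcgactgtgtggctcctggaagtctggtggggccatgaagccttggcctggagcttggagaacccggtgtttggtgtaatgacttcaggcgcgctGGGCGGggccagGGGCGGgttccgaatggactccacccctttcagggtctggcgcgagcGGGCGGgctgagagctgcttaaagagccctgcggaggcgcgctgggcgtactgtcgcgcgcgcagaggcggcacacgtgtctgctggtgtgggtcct
The window held 1 GC box in Kcnd2, none in Kcnj8 and 3 in Kcnk5, and its GC content was 68.7%, 53.3% and 63.7%. RefSeq windows were at hand for 59 of the 83 genes, 75 promoters in all. A GC box was present in 49.3% of these and in 35.7% of all 32851 promoters. The half-site AGAACA of the progesterone and glucocorticoid receptors was present in 17.3% against 19%, the estrogen receptor half-site GGTCA in 28% against 40.5%, and the full palindromic estrogen response element, which contains that half-site, in 0% against 0.07%, all searched on both strands. None of the 3 windows shown holds AGAACA or GGTCA. A match is a description of the letters and no evidence of binding.

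Potassium channel transcripts of the day 3.5 uterus were dominated by a few genes. The highest mean over the 20 libraries was that of Kcnj8 with 63.97 TPM, the pore of the ATP-sensitive channel of vascular and other smooth muscle. Kcnk1, a tandem-pore background channel, followed at 47.55 TPM, then Kcne4, an auxiliary subunit that dampens several voltage-gated channels, at 26.68 TPM, and Kcnh2, the ether-a-go-go related channel known to restrain myometrial contraction, at 23.16 TPM. These 4 genes held 52.68% of the summed coding level. Kcnk5 (17.13 TPM) and Kcnd3 (10.91 TPM) were the only others with a mean of at least 10 TPM, 26 coding genes lay between 1 and 10 TPM, 42 were below 1 TPM and 7 were listed at 0 in every library.

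The summed level of the coding genes was close in the 4 groups, with 306.1 ± 14.77 TPM in control, 305.5 ± 8.765 in IF, 309.3 ± 15.24 in PBMC and 304.3 ± 11.02 in PBMC-hCG (mean ± SD, n = 5 mice, as throughout). The sums of the single classes were further apart. The Kcne subunits summed to 38.73 to 47.88 TPM in the control mice and to 21.29 to 36.22 TPM in the IF mice, without overlap. The inward rectifiers summed to 50.19 to 58.59 TPM in control and to 62.86 to 103.5 TPM in IF, again without overlap, and nearly all of this was Kcnj8. The voltage-gated alpha subunits summed to 111.1 ± 7.914 TPM in control, 88.93 ± 11.05 in IF, 99.07 ± 13.55 in PBMC and 99.22 ± 1.529 in PBMC-hCG, and the tandem-pore channels to 74.1 ± 6.326, 90.97 ± 9.05, 83.04 ± 12.51 and 79.53 ± 7.636 TPM in the same order. The alpha sums did not overlap between control (103.8 to 122.7 TPM) and IF (73.31 to 97.36 TPM) either. Those of the tandem-pore channels did (69.27 to 85.18 and 81.24 to 104.9 TPM). In PBMC and PBMC-hCG the Kcne subunits summed to 27.24 ± 3.275 and 28.79 ± 3.961 TPM. The inward rectifiers summed to 74.41 ± 3.058 and 70.49 ± 2.172 TPM there. These sums are descriptions with no test, and an abundant gene decides each of them.

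**Figure D1:**
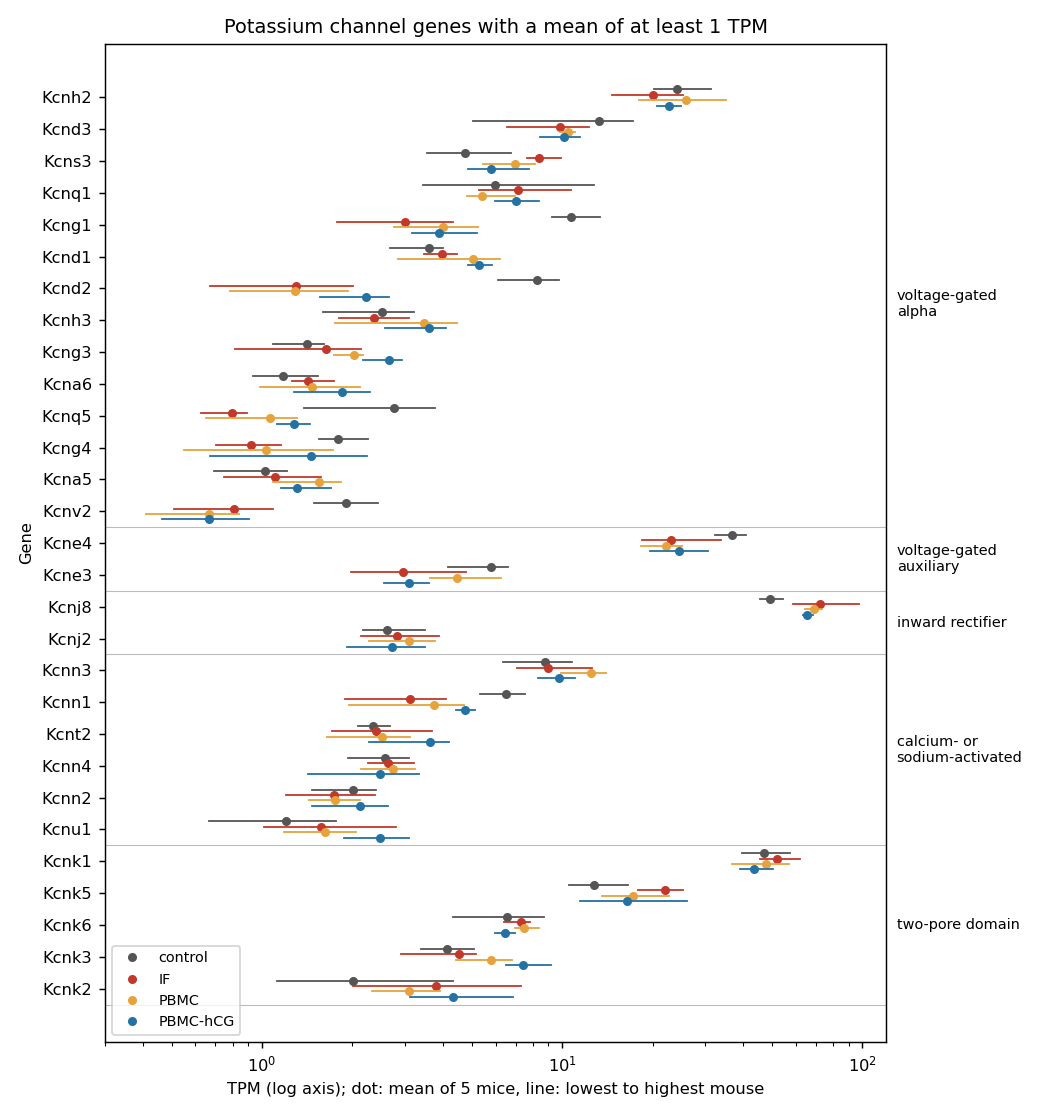
TPM (log axis) of 29 potassium channel genes with a mean of at least 1 TPM, by subfamily; dots are means of 5 mice and lines run from the lowest to the highest mouse in control, IF, PBMC and PBMC-hCG. The control dots of Kcnd2, Kcng1, Kcnq5, Kcnv2 and Kcne4 lie to the right of those of the other groups, and the control dot of Kcnj8 lies to the left.

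For the tests, log2(TPM + 0.1) was fitted with limma over the 18706 genes above 0 TPM in all 20 libraries, which include 55 of the 83 genes (53 coding). A gene is said to rise or fall where its p, adjusted by Benjamini-Hochberg over all tested genes, was under 0.05, and log2 fold changes are differences on the log2(TPM + 0.1) scale, which understates changes of genes near 0.1 TPM. The 28 other genes were too low to be tested and are taken up at the end.

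The first comparison asks how the uterus after RU486 differed from the untreated uterus. In the IF mice 6 of the 55 genes rose and 9 fell, 27.3% of those tested, beside 21.9% of all tested genes (13.4% higher, 8.53% lower). The groups did not overlap for 12 genes (21.8%, beside 12.8% of all tested genes), 18 had an unadjusted p under 0.05 (32.7%, beside 33.9%), and 8 of these changed at least 2-fold (14.5%, beside 4.03%). The median log2 fold change of the 55 genes was 0.10, beside 0.02 for all genes, and their median absolute change was 0.32 beside 0.20. Of the 9 falls, 6 were among the 28 voltage-gated alpha subunits tested and 2 among the 3 Kcne subunits tested. The other was Kcnn1, of 7 calcium- or sodium-activated channels tested. Of the 6 rises, 3 were among the same 28 alpha subunits. A further 2 were among 8 inward rectifiers tested and 1 among 7 tandem-pore channels tested. The alpha subunits are the largest class in both directions because most tested genes belong to it.

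Kcnd2 fell furthest. It encodes a pore of the fast-inactivating A-type current that delays firing in neurons and smooth muscle, and the gene spans 21215346 to 21729805 on chromosome 6. In the control mice it stood at 6.10, 7.46, 8.70, 9.15 and 9.74 TPM and in the IF mice at 0.669, 0.876, 1.12, 1.84 and 2.01 TPM. Every control mouse was above every IF mouse, by 6.32-fold in the fit (log2 fold change -2.66 ± 0.28 (SE), adjusted p = 2.37e-06). Its relatives did not pass the test. Kcnd3, the more abundant A-type gene, was at 13.3 ± 4.96 TPM in control and 9.80 ± 2.27 in IF (log2 fold change -0.35 ± 0.25 (SE), adjusted p = 0.351), and Kcnd1 was at 3.59 ± 0.531 and 3.98 ± 0.438 TPM (adjusted p = 0.591). The control mean of Kcnd3 includes the library control 2 at 5.03 TPM, with the other 4 at 12.5 to 17.23.

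Kcnq5, a pore of the slow M-type current that stabilizes the resting potential, fell as well. Its control values were 1.38, 2.299, 3.12, 3.17 and 3.76 TPM and its IF values 0.628, 0.794, 0.795, 0.855 and 0.888 TPM, again without overlap (log2 fold change -1.61 ± 0.22 (SE), adjusted p = 3.29e-05). Kcnh2 was at 20.3, 21.5, 22.1, 25.1 and 31.3 TPM in control and 14.7, 18.4, 19.1, 22.8 and 25.3 TPM in IF mice, and its difference did not pass the test (log2 fold change -0.27 ± 0.16 (SE), adjusted p = 0.258).

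The modulatory alpha subunits form no channel alone and alter the delayed rectifiers that other alpha subunits such as Kcnb2 form. They moved in opposite directions. Kcng1 fell from 9.26, 9.38, 9.89, 11.6 and 13.4 TPM in control to 1.78, 1.99, 2.86, 4.07 and 4.32 TPM in IF mice, with no overlap (log2 fold change -1.87 ± 0.24 (SE), adjusted p = 1.79e-05). Kcnv2 fell from 1.49, 1.72, 1.88, 1.996 and 2.43 TPM to 0.509, 0.687, 0.767, 0.968 and 1.09 TPM (log2 fold change -1.17 ± 0.21 (SE), adjusted p = 5.15e-04). For Kcng4 the groups did not overlap either, at 1.79 ± 0.299 and 0.917 ± 0.185 TPM (log2 fold change -0.90 ± 0.27 (SE), adjusted p = 0.0240), but this call was lost without control 3, IF 1 or IF 5 (log2 fold change -0.86 to -0.81, adjusted p 0.0519 to 0.0634) and without the 5 libraries of high gland marker level (log2 fold change -0.99, adjusted p = 0.0697). Kcns3 rose, from 3.55, 3.79, 4.24, 5.30 and 6.75 TPM in control to 7.62, 7.96, 8.14, 8.23 and 9.90 TPM in IF (log2 fold change 0.85 ± 0.17 (SE), adjusted p = 0.00130). All IF mice were above all control mice. Kcng3 and Kcnb2 showed no difference that passed the test, with log2 fold changes of 0.15 and -0.10.

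**Figure D2:**
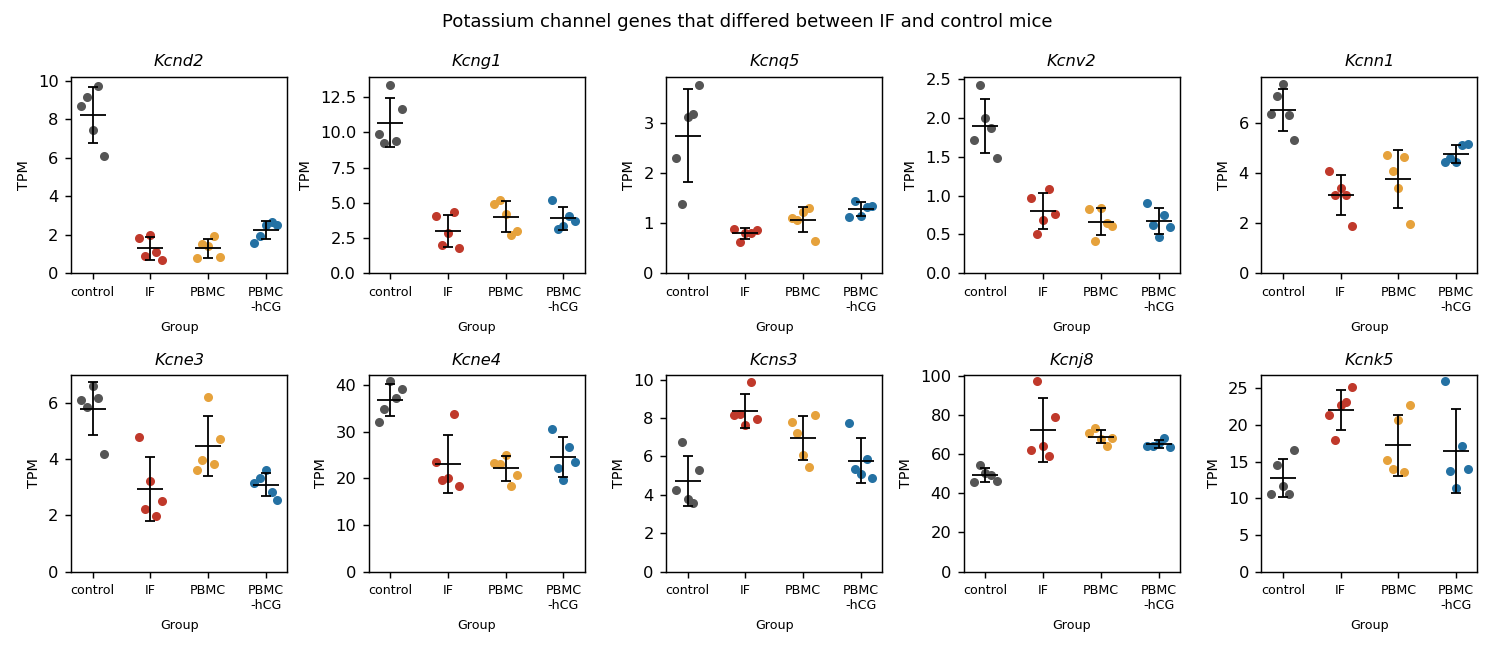
TPM of 10 potassium channel genes in each mouse of the 4 groups, with bars at the mean ± SD of 5 mice; each panel has its own axis from 0. Control mice lie above all IF mice for Kcnd2, Kcng1, Kcnq5, Kcnv2 and Kcnn1 and below all IF mice for Kcns3, Kcnj8 and Kcnk5, while the groups overlap for Kcne3 and Kcne4.

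Among the Kcne subunits, single-pass proteins that set the gating of voltage-gated channels, the 2 abundant ones fell. Kcne4 was at 32.2, 34.9, 37.3, 39.2 and 40.9 TPM in control and 18.4, 19.7, 20.2, 23.6 and 33.7 TPM in IF mice. A single IF mouse, at 33.7 TPM, reached into the control range (log2 fold change -0.70 ± 0.15 (SE), adjusted p = 0.00178). Kcne3, which turns the channel of Kcnq1 into one that stays open in secretory epithelia, was at 4.18, 5.87, 6.10, 6.20 and 6.62 TPM in control and 1.97, 2.24, 2.50, 3.22 and 4.79 TPM in IF, where again 1 mouse overlapped (log2 fold change -1.01 ± 0.21 (SE), adjusted p = 0.00161). Without the 5 libraries of high gland marker level the fall of Kcne4 missed the threshold (log2 fold change -0.55, adjusted p = 0.058). Kcne1l, at 0.436 ± 0.145 and 0.564 ± 0.171 TPM, did not pass the test (adjusted p = 0.402). Kcne1 and Kcne2 were not tested.

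The inward rectifier Kcnj8, on chromosome 6 from 142564837 to 142571614, was the most abundant gene that rose. Its control values were 45.7, 46.4, 49.5, 50.6 and 54.3 TPM and its IF values 58.9, 62.0, 64.2, 79.1 and 97.7 TPM, all of them above control (log2 fold change 0.53 ± 0.10 (SE), adjusted p = 8.92e-04). The spread in IF was wide because of IF 2 (97.7 TPM) and IF 5 (79.1 TPM). Kcnj2, the strong rectifier of muscle and endothelium, was at 2.61 ± 0.537 and 2.81 ± 0.653 TPM (log2 fold change 0.10 ± 0.19 (SE), adjusted p = 0.765), and Kcnj15 was at 0.346 ± 0.190 and 0.517 ± 0.298 TPM (adjusted p = 0.468). Kcnj12, a strong rectifier of muscle named here after its values were seen, rose from 0.0339, 0.0390, 0.0532, 0.0557 and 0.0751 TPM to 0.0878, 0.128, 0.253, 0.554 and 1.35 TPM (log2 fold change 1.51 ± 0.45 (SE), adjusted p = 0.0213). This is a low gene, and the call was lost without IF 2 (log2 fold change 1.35, adjusted p = 0.0553), without IF 5 (1.07, adjusted p = 0.0579) and without the 5 libraries of high gland marker level (1.33, adjusted p = 0.065).

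Of the calcium- or sodium-activated channels only Kcnn1 differed. This small-conductance channel was at 5.30, 6.30, 6.36, 7.05 and 7.53 TPM in control and at 1.90, 3.09, 3.12, 3.40 and 4.09 TPM in IF mice, without overlap (log2 fold change -1.07 ± 0.21 (SE), adjusted p = 0.00117). Kcnn3, the small-conductance channel best known from the uterus, where its level governs contraction, was at 8.77 ± 1.89 and 8.95 ± 2.08 TPM (log2 fold change 0.03 ± 0.16 (SE), adjusted p = 0.925). Its 95% interval ran from -0.30 to 0.36. The sodium-activated Kcnt2 was at 2.35 ± 0.233 and 2.40 ± 0.781 TPM (adjusted p = 0.968).

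In the tandem-pore family Kcnk5 rose. It encodes a channel that opens in alkaline surroundings and on cell swelling and is known from transporting epithelia, and it lies on chromosome 14 from 20140057 to 20181782. Control mice had 10.5, 10.6, 11.7, 14.5 and 16.5 TPM and IF mice 17.9, 21.3, 22.7, 23.1 and 25.2 TPM, each IF mouse above each control mouse (log2 fold change 0.80 ± 0.20 (SE), adjusted p = 0.00646). The more abundant Kcnk1 was at 39.8, 44.5, 46.0, 47.4 and 57.4 TPM in control and 45.7, 48.8, 50.8, 52.4 and 62.0 TPM in IF, which did not pass the test (log2 fold change 0.15 ± 0.12 (SE), adjusted p = 0.418). Kcnk6, the closest relative of Kcnk1 among the abundant genes, was at 6.54 ± 1.58 and 7.30 ± 0.555 TPM (adjusted p = 0.342). Kcnk2, the stretch-opened channel of the pregnant myometrium, was at 2.01 ± 1.34 TPM in control and 3.79 ± 2.13 in IF and missed the threshold (log2 fold change 0.92 ± 0.35 (SE), adjusted p = 0.0662).

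Marker genes of several tissues differed between the same groups. In IF against control, 7 of 8 endothelial markers rose and none fell, and their summed level was 452.9 to 563.2 TPM in control and 624.2 to 714.4 TPM in IF. Of the 8 stromal markers 4 rose and 1 fell (3208 to 3599 against 4358 to 5514 TPM). Of the 10 epithelial markers 6 rose and 1 fell, with overlapping sums (875.7 to 1517 against 1207 to 1547 TPM), and 2 of 10 myometrial markers fell, with sums of 6374 to 11730 TPM in control and 6451 to 7912 TPM in IF. Of the 8 gland markers 1 rose and 1 fell. Of the 8 T cell markers 1 rose, of the 8 myeloid markers 2 rose, of the 6 nerve and glia markers tested 1 rose, of the 4 ovary and oviduct markers tested 1 fell, and no B cell or red cell marker passed. The part of these markers in the differences of the channel genes was not tested. Without the 5 libraries of high gland marker level, 16 of the 55 channel genes were called in IF against control, 8 in each direction.

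**Figure D3:**
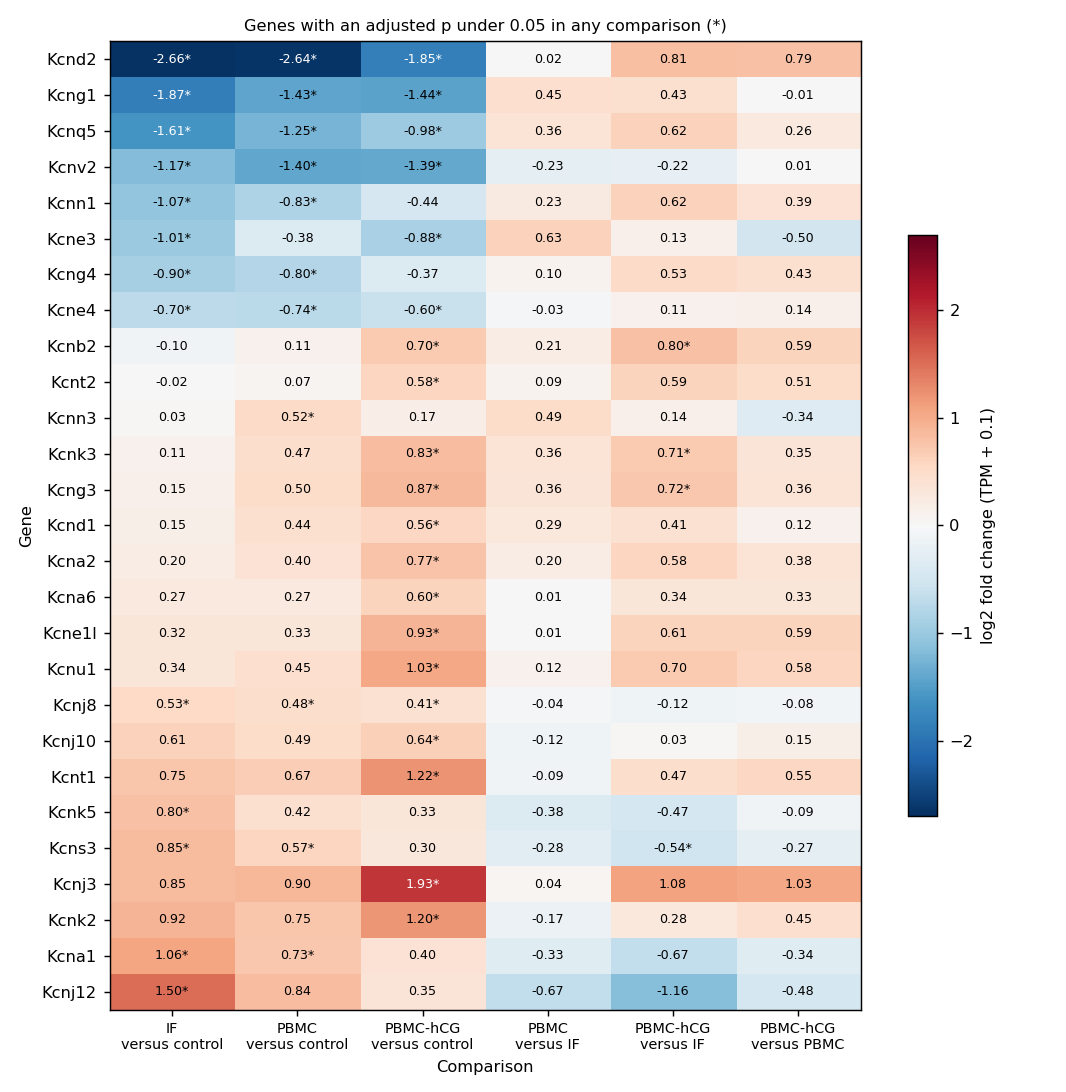
Log2 fold change (TPM + 0.1) of 27 potassium channel genes with an adjusted p under 0.05 in at least 1 of the 6 comparisons; red is higher and blue lower in the group named first, and an asterisk marks an adjusted p under 0.05. The columns against control, which share the control mice, begin with -2.66, -2.64 and -1.85 for Kcnd2, and the column for PBMC against IF holds no asterisk.

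PBMC without hCG was compared with IF to ask what the cells change in the RU486-treated uterus. No potassium channel gene passed the test, and neither did any of the 18706 genes (0% of all tested genes) in limma, the tool used throughout. At an unadjusted p under 0.05 there were 5 of the 55 (9.09%, beside 6.79% of all genes), none with a change of 2-fold or more (0.438% of all genes) and none without overlap (1.01%). These were Kcne3, Kcnn3, Kcna5, Kcnh2 and Kcnk3, all higher in PBMC. Kcne3 was at 1.97, 2.24, 2.50, 3.22 and 4.79 TPM in IF and 3.63, 3.83, 3.96, 4.71 and 6.23 TPM in PBMC mice, with overlapping groups (log2 fold change 0.63 ± 0.21 (SE), adjusted p = 0.628). Kcnn3 was at 7.08, 8.21, 8.38, 8.54 and 12.5 TPM in IF and 9.93, 11.6, 12.8, 13.9 and 14.04 TPM in PBMC (log2 fold change 0.49 ± 0.16 (SE), adjusted p = 0.628). For Kcnd2 the fit gave a log2 fold change of 0.02 with a 95% interval of -0.57 to 0.60.

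Against the same control mice, 12 channel genes were called in PBMC, 5 higher and 7 lower (21.8%, beside 19.5% of all tested genes, 12.8% higher and 6.7% lower), and 10 did not overlap (18.2%, beside 12.7%). At an unadjusted p under 0.05 there were 22 (40%, beside 31.6%), of which 4 changed at least 2-fold (7.27%, beside 3.34%). Kcnd2 was at 0.782, 0.817, 1.39, 1.52 and 1.93 TPM (log2 fold change -2.64 ± 0.28 (SE), adjusted p = 3.14e-06). Kcng1 at 4.01 ± 1.12 TPM, Kcnv2 at 0.666 ± 0.175 TPM, Kcnq5 at 1.07 ± 0.252 TPM and Kcne4 at 22.1 ± 2.61 TPM were also lower, with log2 fold changes of -1.43, -1.40, -1.25 and -0.74. Kcnj8 at 69.0 ± 3.41 TPM was higher, with a log2 fold change of 0.49. For Kcne3 and Kcnk5 the difference from control did not pass (adjusted p = 0.220 and 0.145), and whether the PBMC and IF mice differed in it is the test of PBMC against IF, which they did not pass either.

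Kcnn3 rose in PBMC against control (log2 fold change 0.52 ± 0.16 (SE), adjusted p = 0.0275), with the control mice at 6.35, 7.46, 8.83, 10.4 and 10.8 TPM. That call was lost without control 2 or 5 or without PBMC 1, 2 or 3 (log2 fold change 0.41 to 0.51, adjusted p 0.0559 to 0.0684), and without the 5 libraries of high gland marker level it was 0.31 (adjusted p = 0.157). In all, 3 further calls against control were lost when 1 library was left out. Kcng4 was lost without any of control 1 to 5 or PBMC 1, 2, 3 or 5 (log2 fold change -0.85 to -0.62, adjusted p 0.0584 to 0.116), Kcns3 without control 3 or 4 or PBMC 1 (0.48 to 0.53, adjusted p 0.0529 to 0.0636), and Kcna1, a delayed rectifier of low level named after its values were seen, without control 3 or PBMC 3 or 5 (0.61 to 0.71, adjusted p 0.0522 to 0.0623). The other 8, among them Kcnd2, Kcng1, Kcnq5, Kcnv2, Kcnn1, Kcne4 and Kcnj8, kept an adjusted p under 0.05 whichever library was left out. In PBMC against control 6 of 8 endothelial markers rose (622.7 to 748.1 TPM in PBMC), 4 of 8 stromal markers rose and 1 fell (4557 to 5894 TPM), 5 of 10 epithelial markers rose and 1 fell (1235 to 1590 TPM) and no myometrial marker passed. A single T cell (36.32 to 52.1 TPM), gland (1726 to 3794 TPM) and nerve or glia marker (18.98 to 22.14 TPM) rose, 1 ovary and oviduct marker fell (18.13 to 25.38 TPM), and no B cell, myeloid or red cell marker passed. The part of these markers in the channel genes was not tested.

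For PBMC-hCG against IF the question was whether cells cultured with hCG change the RU486-treated uterus. In PBMC-hCG 4 channel genes rose and 1 fell (9.09%, beside 13.6% of all tested genes, 7.61% higher and 5.99% lower). Kcnb2, Kcng3 and Kcnk3 were among the rises, and the fall was in Kcns3. The groups did not overlap for 6 genes (10.9%, beside 7.24%), and at an unadjusted p under 0.05 there were 19 (34.5%, beside 35%), of which 2 changed at least 2-fold (3.64%, beside 2.31%). The median log2 fold change of the 55 genes was 0.13, beside 0.05 for all genes.

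Kcnk3, an acid-inhibited tandem-pore channel that holds the resting potential of smooth muscle, rose from 2.90, 4.60, 4.96, 5.06 and 5.15 TPM in IF to 6.50, 6.55, 7.12, 7.72 and 9.19 TPM in PBMC-hCG, without overlap (log2 fold change 0.71 ± 0.17 (SE), adjusted p = 0.0287). In IF the mouse at 2.90 TPM stood apart from the other 4. Kcnb2, a partner of the modulatory subunits at a low level, rose from 0.235, 0.370, 0.414, 0.491 and 0.522 TPM to 0.673, 0.686, 0.772, 0.774 and 0.931 TPM (log2 fold change 0.80 ± 0.18 (SE), adjusted p = 0.0279). Kcng3, a modulatory subunit, rose from 0.813, 1.44, 1.77, 2.002 and 2.14 TPM to 2.17, 2.48, 2.78, 2.87 and 2.93 TPM (log2 fold change 0.72 ± 0.19 (SE), adjusted p = 0.0315). All PBMC-hCG mice were above all IF mice for both. Kcns3 went the other way, from 7.62, 7.96, 8.14, 8.23 and 9.90 TPM to 4.86, 5.06, 5.37, 5.85 and 7.77 TPM (log2 fold change -0.54 ± 0.17 (SE), adjusted p = 0.0428).

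These 5 calls rest on the full set of mice. No channel gene passed when any of IF 2, 4 or 5 or PBMC-hCG 2, 3, 4 or 5 was left out. Without IF 1, 5 passed, but these were not the same 5: all were higher, and Kcns3 was lost (log2 fold change -0.55, adjusted p = 0.0538). There were 15 without IF 3 and 16 without PBMC-hCG 1. The share of all tested genes called in these fits was not computed. The counts therefore cannot be read as particular to the channel genes. Leaving out 1 library at a time moved the log2 fold changes of lost calls to 0.57 to 0.76 for Kcnk3, 0.66 to 0.88 for Kcnb2, 0.51 to 0.77 for Kcng3 and -0.56 to -0.48 for Kcns3, with adjusted p between 0.0535 and 0.110. Without the 5 libraries of high gland marker level 5 genes were called, 4 higher and 1 lower. In PBMC-hCG against IF 2 of 5 red cell markers fell (640 to 1802 TPM in IF, 341.7 to 878.4 TPM in PBMC-hCG), 1 of 8 endothelial and 1 of 10 epithelial markers rose, 1 stromal marker rose and 1 fell, and no marker of the other lists passed. The part of these markers in the 5 calls was not tested.

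Some of the genes that fell or rose in IF had a mean between those of IF and control in PBMC-hCG without passing the test against IF, whose mice enter both comparisons. Kcnd2 stood at 1.56, 1.91, 2.48, 2.51 and 2.65 TPM in PBMC-hCG (log2 fold change 0.81 ± 0.28 (SE), adjusted p = 0.0566), Kcnq5 at 1.27 ± 0.140 TPM (log2 fold change 0.62 ± 0.22 (SE), adjusted p = 0.0579) and Kcnn1 at 4.74 ± 0.354 TPM (log2 fold change 0.62 ± 0.21 (SE), adjusted p = 0.0523). For Kcnq5 and Kcnn1 every PBMC-hCG mouse was above every IF mouse. Kcnk5 stood at 11.5, 13.7, 14.04, 17.1 and 26.0 TPM, with PBMC-hCG 1 above all IF mice (log2 fold change -0.47 ± 0.20 (SE), adjusted p = 0.0984). Kcnj8, Kcne4 and Kcnv2 had log2 fold changes of -0.12, 0.11 and -0.22 against IF.

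**Figure D4:**
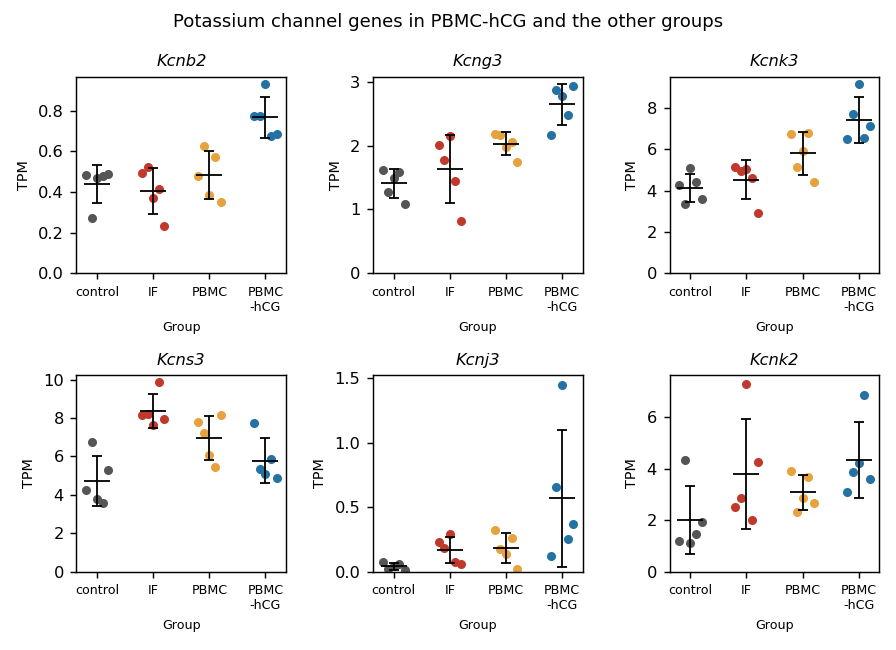
TPM of Kcnb2, Kcng3, Kcnk3, Kcns3, Kcnj3 and Kcnk2 in each mouse of the 4 groups, with bars at the mean ± SD of 5 mice; each panel has its own axis from 0. PBMC-hCG mice lie above all IF mice for Kcnb2, Kcng3 and Kcnk3, and the highest PBMC-hCG mouse of Kcnj3 is at 1.45 TPM.

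The direct comparison of PBMC-hCG with PBMC asks what hCG in the culture adds. None of the 55 genes passed (0.0107% of all tested genes did, 0.00535% in each direction). At an unadjusted p under 0.05 there were 9 (16.4%, beside 16.2% of all genes), 1 of them with a change of at least 2-fold (1.82%, beside 0.893%), and 2 did not overlap (3.64%, beside 3.46%): Kcnb2, at 0.350, 0.383, 0.477, 0.573 and 0.625 TPM in PBMC (log2 fold change 0.59 ± 0.18 (SE), adjusted p = 0.268), and Kcne3, at 2.55, 2.82, 3.16, 3.32 and 3.61 TPM in PBMC-hCG (log2 fold change -0.50 ± 0.21 (SE), adjusted p = 0.286). Kcnd2 had a log2 fold change of 0.79 (adjusted p = 0.275) with a 95% interval of 0.21 to 1.38. A p that misses the threshold does not show that the groups were alike. The genes called in PBMC-hCG against IF were not shown to depend on hCG.

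Against control, 23 channel genes were called in PBMC-hCG, 16 higher and 7 lower (41.8%, beside 31.8% of all tested genes, 20.2% higher and 11.6% lower), and 17 did not overlap (30.9%, beside 18.3%). At an unadjusted p under 0.05 there were 26 (47.3%, beside 42.2%), of which 7 changed at least 2-fold (12.7%, beside 4.74%). The lower genes included Kcnd2, Kcng1, Kcnv2, Kcnq5, Kcne3 and Kcne4, with log2 fold changes from -1.85 to -0.60. The higher genes came from all 5 classes and included Kcna2, Kcna6, Kcnb2, Kcnd1 and Kcng3 of the alpha subunits, Kcne1l, the inward rectifiers Kcnj3, Kcnj8 and Kcnj10, the sodium- or pH-activated Kcnt1, Kcnt2 and Kcnu1, and the tandem-pore Kcnk2 and Kcnk3. Kcna2, Kcnj3 and Kcnj10 have means under 0.5 TPM and are named after their values were seen.

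Kcnk2 was at 1.12, 1.20, 1.46, 1.92 and 4.33 TPM in control and 3.10, 3.60, 3.86, 4.24 and 6.87 TPM in PBMC-hCG, where only control 2 overlapped (log2 fold change 1.20 ± 0.35 (SE), adjusted p = 0.0132). Kcnu1, a pH-sensitive channel best known from sperm, was at 0.665, 0.901, 1.18, 1.49 and 1.76 TPM in control and 1.88, 2.34, 2.49, 2.53 and 3.10 TPM in PBMC-hCG (log2 fold change 1.04 ± 0.26 (SE), adjusted p = 0.00557). Kcnj3, a subunit of the G protein-gated channel, was at 0.00945, 0.0207, 0.0430, 0.0571 and 0.0750 TPM in control and 0.119, 0.251, 0.365, 0.654 and 1.45 TPM in PBMC-hCG (log2 fold change 1.93 ± 0.43 (SE), adjusted p = 0.00233). Its groups did not overlap, but the mice of PBMC-hCG were spread widely. Kcnt1, a sodium-activated channel, was at 0.413 ± 0.196 and 1.07 ± 0.288 TPM (log2 fold change 1.22 ± 0.33 (SE), adjusted p = 0.00863), Kcne1l at 0.436 ± 0.145 and 0.941 ± 0.372 TPM (log2 fold change 0.93 ± 0.25 (SE), adjusted p = 0.00853) and Kcnd1 at 3.59 ± 0.531 and 5.30 ± 0.415 TPM (log2 fold change 0.56 ± 0.17 (SE), adjusted p = 0.0193). Kcna6, a delayed rectifier, was at 1.18 ± 0.220 and 1.85 ± 0.381 TPM (log2 fold change 0.60 ± 0.18 (SE), adjusted p = 0.0170) and Kcnt2 at 2.35 ± 0.233 and 3.61 ± 0.766 TPM (log2 fold change 0.58 ± 0.21 (SE), adjusted p = 0.0383).

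Of these 23 calls, 18 held whichever library was left out. Kcna6 was lost without PBMC-hCG 3 (log2 fold change 0.52, adjusted p = 0.0512) and Kcna2 without control 1 or PBMC-hCG 2 or 5 (0.70 to 0.72, adjusted p 0.0629 to 0.0659). Kcnj10 was lost without control 1, 3, 4 or 5 or PBMC-hCG 1, 2 or 4 (0.52 to 0.65, adjusted p 0.0565 to 0.103), and Kcnt2 without control 1, 3, 4 or 5 or PBMC-hCG 2, 3, 4 or 5 (0.52 to 0.60, adjusted p 0.0535 to 0.0909). Without the 5 libraries of high gland marker level 24 genes were called, 16 higher and 8 lower, and Kcnd1 (0.46, adjusted p = 0.109), Kcne1l (0.78, adjusted p = 0.0528) and Kcnt2 (0.58, adjusted p = 0.0683) missed the threshold. In the same comparison 6 of 10 myometrial markers fell and none rose (sums of 5207 to 6561 TPM in PBMC-hCG), all 8 endothelial markers rose (714.8 to 831 TPM), 5 of 10 epithelial markers rose and 1 fell (1281 to 1675 TPM), and 4 of 8 stromal markers rose and 1 fell (5350 to 6234 TPM). Of the blood cell lists, 3 of 8 T cell markers rose (30.91 to 45.13 TPM in control, 39.54 to 58.81 TPM in PBMC-hCG), 1 of the 3 B cell markers tested rose (30.69 to 49.2 against 48.22 to 77.53 TPM), 2 of 8 myeloid markers rose (691.4 to 865.1 against 700.9 to 1035 TPM) and 1 of 5 red cell markers fell (645.8 to 1295 against 341.7 to 878.4 TPM). Of the 8 gland markers 1 rose and 2 fell, of the 4 ovary and oviduct markers tested 1 fell, and no nerve or glia marker passed. Their part in the differences of the channel genes was not tested.

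Channels of these families work with partner proteins outside the Kcn plus digit naming. A list of 22 such subunits was examined, of which 16 were tested. In IF against control 3 rose and 2 fell (21.9% of all tested genes were called), in PBMC against control 3 rose and 2 fell (19.5%), in PBMC-hCG against control 4 rose and 3 fell (31.8%), and in PBMC-hCG against IF 1 rose (13.6%). Abcc9, the sulfonylurea receptor that assembles with the Kcnj8 pore, was at 17.5, 17.9, 18.6, 19.7 and 20.1 TPM in control and 24.4, 24.5, 25.3, 26.4 and 27.2 TPM in IF (log2 fold change 0.45 ± 0.07 (SE), adjusted p = 1.48e-04). In PBMC-hCG it was at 27.4, 29.0, 29.6, 30.2 and 31.5 TPM, above all IF mice, but did not pass against IF (log2 fold change 0.21 ± 0.07 (SE), adjusted p = 0.0526). The pore and its receptor were both above control in every IF mouse. Kcnma1, the large-conductance calcium-activated channel that relaxes smooth muscle, rose from 6.37, 7.13, 7.18, 7.48 and 8.66 TPM to 9.83, 13.6, 13.7, 15.1 and 17.9 TPM (log2 fold change 0.90 ± 0.13 (SE), adjusted p = 5.17e-05), while its smooth muscle beta subunit Kcnmb1 was at 11.1 ± 2.36 and 12.4 ± 1.47 TPM (log2 fold change 0.18 ± 0.12 (SE), adjusted p = 0.335). Lrrc55, an auxiliary subunit of the same channel, rose from 1.01 ± 0.514 to 2.84 ± 0.589 TPM (log2 fold change 1.58 ± 0.32 (SE), adjusted p = 0.00164).

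The auxiliary subunits Kcnip3 and Kcnab1 fell in IF. Kcnip3, a calcium sensor that binds these channels and also acts as a transcriptional repressor, fell from 13.5, 18.7, 19.3, 19.7 and 20.4 TPM in control to 6.84, 7.42, 8.19, 9.40 and 10.4 TPM in IF (log2 fold change -1.11 ± 0.15 (SE), adjusted p = 4.05e-05). It rose in PBMC-hCG against IF, to 10.7, 11.6, 12.1, 12.5 and 13.2 TPM, above every IF mouse and below every control mouse (log2 fold change 0.52 ± 0.15 (SE), adjusted p = 0.0382). That rise was the list's only call in this comparison, and no gene of the list passed without IF 1, 2, 4 or 5 or PBMC-hCG 2, 3, 4 or 5. Kcnab1, a beta subunit that speeds inactivation, fell from 10.1, 10.5, 11.0, 13.1 and 14.6 TPM to 3.02, 3.77, 4.89, 5.50 and 5.95 TPM (log2 fold change -1.37 ± 0.18 (SE), adjusted p = 2.69e-05) and was at 6.50 ± 1.39 TPM in PBMC-hCG (log2 fold change 0.50 ± 0.18 (SE), adjusted p = 0.0658). Kcnip2, another sensor of the A-type channels, was at 1.95 ± 0.427 TPM in control and 4.95 ± 1.32 TPM in PBMC-hCG (log2 fold change 1.28 ± 0.34 (SE), adjusted p = 0.00767), and Abcc8 was lower, at 0.639 ± 0.195 and 0.358 ± 0.147 TPM (adjusted p = 0.0281).

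**Figure D5:**
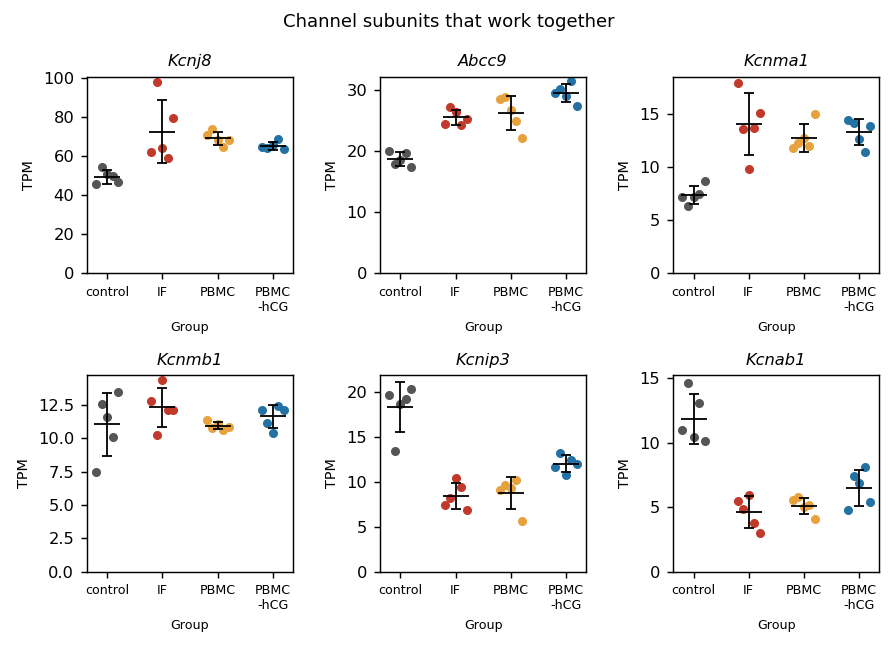
TPM of Kcnj8 and 5 partner genes (Abcc9, Kcnma1, Kcnmb1, Kcnip3 and Kcnab1) in each mouse of the 4 groups, with bars at the mean ± SD of 5 mice; each panel has its own axis from 0. The IF mice lie above the control mice for Kcnj8, Abcc9 and Kcnma1 and below them for Kcnip3 and Kcnab1, and the groups overlap for Kcnmb1.

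Potassium pumps build the gradient that the channels use. Of 24 genes of pumps, their Fxyd regulators and Slc12 cotransporters, 20 were tested. In IF against control 5 rose and 3 fell (beside 21.9% of all tested genes called), in PBMC against control 5 rose and 1 fell (beside 19.5%), in PBMC-hCG against control 5 rose and 1 fell (beside 31.8%, which is close to 6 of 20), and in PBMC-hCG against IF 3 rose and 3 fell (beside 13.6%). Atp12a, the proton-potassium pump of non-gastric epithelia, fell from 9.18, 11.9, 12.8, 14.7 and 18.3 TPM to 0.993, 1.07, 2.12, 3.22 and 3.49 TPM (log2 fold change -2.698 ± 0.30 (SE), adjusted p = 3.55e-06) and rose in PBMC-hCG against IF, to 3.39, 3.58, 4.01, 4.49 and 5.24 TPM (log2 fold change 1.05 ± 0.30 (SE), adjusted p = 0.0344). In PBMC it was at 4.41, 4.63, 5.47, 6.71 and 7.90 TPM, above all IF mice, with an adjusted p of 0.274 against IF. Fxyd4, a regulator of the sodium pump, was at 64.8 ± 35.2 TPM in control mice, 18.5 ± 11.4 TPM in IF mice and 46.1 ± 9.32 TPM in PBMC-hCG mice. Both its fall in IF and its higher level in PBMC-hCG against IF passed (log2 fold change -1.77 ± 0.39 (SE), adjusted p = 0.00280 and 1.48 ± 0.39, adjusted p = 0.0307). The groups overlapped in both comparisons. IF 1 was at 37.85 TPM, above control 2 (31.87 TPM), control 5 (22.6 TPM) and PBMC-hCG 1 (31.18 TPM). Atp1b2 and Atp1b3 were among the 5 genes that rose in IF, without overlap with control. Atp1b2 went from 28.24 ± 2.816 to 45.65 ± 4.233 TPM (adjusted p = 5.649e-04) and Atp1b3 from 256.1 ± 53.7 to 462.2 ± 87.61 TPM (adjusted p = 0.003355). In PBMC-hCG, Atp1b3 was at 305.4 ± 74.3 TPM and was 1 of the 3 falls against IF (adjusted p = 0.0459). No pump or cotransporter passed in PBMC-hCG against IF when IF 2, 4 or 5 or PBMC-hCG 2, 3, 4 or 5 was left out, whereas 7 to 9 passed in IF against control whichever mouse was left out.

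The 28 genes that were not tested had a 0 in at least 1 library. Of these, 7 were listed at 0 in all 20: Kcnj6, Kcnj16, Kcnk15, Kcnk16, Kcnk18, Kcnh7 and Kcna10. The other 21 were above 0 in some library. Kcnh5 and Kcnk4 are given as examples, named after their values were seen, as a description with no test. Kcnh5, an ether-a-go-go channel of the nervous system, was listed at 0 in all 5 control mice and at 0, 0.0527, 0.0778, 0.247 and 0.268 TPM in IF, 0.133, 0.222, 0.229, 0.233 and 0.315 TPM in PBMC and 0.123, 0.246, 0.253, 0.273 and 0.301 TPM in PBMC-hCG. Kcnk4, a stretch-opened tandem-pore channel, was at 0, 0.104, 0.142, 0.195 and 0.258 TPM in control and 0, 0, 0, 0 and 0.0599 TPM in IF. An exact 0 in a table without counts can be a failed estimate, so no fold is given against it.

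Some of these genes are neighbours. Kcna1 and Kcna6 lie 62526 bases apart on chromosome 6, Kcna2 lies between Kcna3 and Kcna10 on chromosome 3, and Kcnk5 lies 79592 bases from Kcnk16, which was listed at 0 throughout. Kcna1 rose in IF against control and Kcna6 did not pass (adjusted p = 0.00181 and 0.330). The noncoding Kcnd3os overlaps Kcnd3 and Kcnq1ot1 lies within Kcnq1. The library kit keeps strand, but whether the quantification used it is not given in the sources used here, so reads of the overlapping genes cannot be told apart. Neither noncoding RNA was called in any of the 6 comparisons.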

How the data were processed

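Poly(A) RNA of 20 uterine horns, 5 mice per group, was sequenced by the authors on stranded libraries. The submitters' processing notes name Trimmomatic, HISAT2, StringTie and mm10, and versions are not given in the sources used here. The authors deposited one TPM value per gene and library, which holds no read counts, so the depth is unknown and no counting interval can be given. Although the authors tested with edgeR, only TPM values were used here, so limma 3.58.1 (R 4.3.3) was fitted with a mean-variance trend to log2(TPM + 0.1) of the 18706 genes above 0 TPM in all 20 libraries. All 4 groups shared one estimate of spread (16 residual degrees of freedom), and p-values were adjusted by Benjamini-Hochberg over all tested genes within each of 6 comparisons. The p-values measure the spread between mice. The script was tested on simulated data.

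Members and lists were chosen with earlier results of these data known. Genes are named where the adjusted p was under 0.05 in any comparison and the mean at least 0.5 TPM, or where the gene was among the 3 highest of its subfamily, with the value of each mouse where the fold change was at least 1.5 or the groups did not overlap. A few genes that meet this rule are not reported here. Others are said to be named after their values were seen. Gene positions and promoters are those of RefSeq on GRCm38.p6, which matched all 83 symbols. Alternatives varied the pseudocount (1 and 0.01), the filter, the normalization, the library weights, the libraries in the fit, the replicate block and the call rule. No 2 libraries held identical values.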

Additional observations from a re-analysis of the deposited data

Results flagged for a closer look

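Within a group of 5 mice, the gap of a value to the nearest other mouse was divided by the range of the group. Gap and range were taken on the log2 scale used for the tests, not in TPM. A value was marked where this ratio was above 0.71. Of 132 pairs of a named gene and a group (33 genes), 6 were marked, and chance marks about 1 in 20. All 6 were low values on this scale. They are listed here in TPM, in which the ratio can differ. In control 2, Kcnd3 was at 5.03 TPM (others 12.5 to 17.23), Kcnd1 at 2.678 TPM (others 3.615 to 4.022) and Kcnb2 at 0.2728 TPM (others 0.4673 to 0.4867). Kcne3 was at 4.175 TPM in control 5 (others 5.87 to 6.618), Kcnk3 at 2.904 TPM in IF 5 (others 4.599 to 5.152) and Kcnt2 at 2.271 TPM in PBMC-hCG 1 (others 3.785 to 4.203). The libraries control 2, control 5 and IF 5 are among the 5 with a summed gland marker level of at least 6255 TPM.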

How the results depend on the processing

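No call of a named gene reversed under any alternative: of 55 calls none changed sign. The number of potassium channel genes called moved most for PBMC-hCG against IF, from 5 to 22 with library weights, 9 (7 higher, 2 lower) with the replicate block, 3 with genes above 0 TPM in at least 1 library and 2 where a 2-fold change and a raw p under 0.05 were asked for. With the last rule the counts were 8 for IF against control, 1 for PBMC-hCG against PBMC, 4 for PBMC against control and 7 for PBMC-hCG against control, and with library weights 3 for PBMC-hCG against PBMC and 25 for PBMC against control. On leaving out 1 mouse, the counts ranged from 12 (without IF 5) to 20 (without control 2) for IF against control, from 0 to 16 for PBMC-hCG against IF, from 9 to 14 for PBMC against control and from 19 to 26 for PBMC-hCG against control, and were 0 throughout for the other comparisons. Of the calls, 12 of 15, 0 of 5, 8 of 12 and 18 of 23 held in all these fits. The replicate block lost no call of a named gene. Deviations from the group mean correlated at r = -0.247 to 0.457 (median -0.01) between mice with the same number. The median for different numbers was 0.009. Of the 30 same-number pairs 8 were over 0.1, and 2 libraries correlated best with their own number. These values show no general pairing by number and cannot decide whether single pairs are linked. The cause of these shifts was not tested. Without the 5 libraries of high gland marker level, chosen after seeing the data, the counts were 16, 0, 5, 0, 13 and 24. Apart from the 2-fold rule, the shares of all tested genes under these alternatives were not computed.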
